A study of Mus musculus with 8 samples.

Results

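Complement is a system of proteins that marks particles and cells for removal, and 9 of its genes were followed here in kidneys of NEKO mice. The 9 are C3, C4b and C2, Cfb and Cfd, Cfi and Cd55, and the receptor genes C3ar1 and C5ar1. They were taken by name as all probes that could be matched to these symbols, out of 19593 genes and unnamed transcripts tested on the arrays. Of the 9, 7 passed the filter on dim probes and could be tested, and C3ar1 and C5ar1 did not.

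Complement can be started by the classical pathway, through C1q bound to antibody, by the lectin pathway, or by the alternative pathway, which also amplifies the other routes. All routes meet at C3, whose fragments coat surfaces and, like those of C5, call in leukocytes through receptors. Most plasma complement comes from the liver, while kidney tubule cells and infiltrating leukocytes are known to make some components locally.

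RNA was taken from whole kidneys of mice aged 8 weeks, on a mixed background of 129Sv/J and C57BL/6J, and was hybridised to 1-colour (Cy3) Agilent arrays, 1 per mouse. The 4 NEKO mice (2 females and 2 males) were Keap1-/-::Nrf2Flox/Flox::K5-Cre. Keap1, which holds the transcription factor Nrf2 down, is missing from all their tissues, and Cre under the Keratin 5 promoter removes Nrf2 in squamous epithelium. The 4 controls (2 females and 2 males) carried 1 working allele of Keap1. One female was K1 (Keap1+/-::Nrf2Flox/Flox), and the other 3 mice were K1Cre (Keap1+/-::Nrf2Flox/Flox::K5-Cre). Both Nrf2 alleles are floxed in every mouse, so neither group is wild type.

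Levels are the log2 processed signal of a probe minus the 75th percentile of the probes of its array, so a level of 0 equals that percentile. Levels of different probes are not compared with each other. A limma model with terms for genotype and sex gave each difference, and a gene was called at a p under 0.05 after Benjamini-Hochberg adjustment over everything tested. Keap1 was between 1.77 and 1.92 in the controls and between 0.060 and 0.45 in NEKO mice (log2 difference -1.63, adjusted p = 0.0046 from limma), so that every library matched its group. The K1 mouse, at 1.80, lay within the range of the K1Cre mice, so Keap1 does not check these 2 labels. Of 8 known Nrf2 target genes 1 was called, Txnrd1 (adjusted p = 0.049 from limma), and their summed level was 7.74 to 8.67 in controls, 9.03 to 9.04 in NEKO females and 9.59 to 9.60 in NEKO males. The share of probes well above background was 61.8% to 65.7% over the arrays, and no probe was saturated. All 9 proximal tubule and all 4 thick ascending limb marker genes looked at passed the filter on dim probes. Each sex had a slide of its own, which means that sex cannot be told apart from slide. By the array number in the file headers, the controls were arrays 1 and 2 and the NEKO mice arrays 3 and 4 of both slides, so position on the slide and genotype cannot be told apart either.

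None of the 7 tested members was called higher or lower in NEKO kidneys, where 0.225% of everything tested was called. At an unadjusted p under 0.05 limma gave 1 member, C3, which was higher, where 18.0% of everything tested passed in either direction (7.37% higher and 10.6% lower). No member had groups free of overlap, against 9.27% of everything tested (3.88% higher and 5.39% lower). The methods' t-test gave 1 member without adjustment, again C3, where 11.3% of everything tested passed (4.81% higher and 6.48% lower), and none with it, where 0.00510% passed. The median log2 difference was 0.23 over the 7 members and -0.03 over all that was tested. In whole kidney, a change in the number of cells of a type and a change in RNA per cell cannot be told apart.

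**Figure D1:**
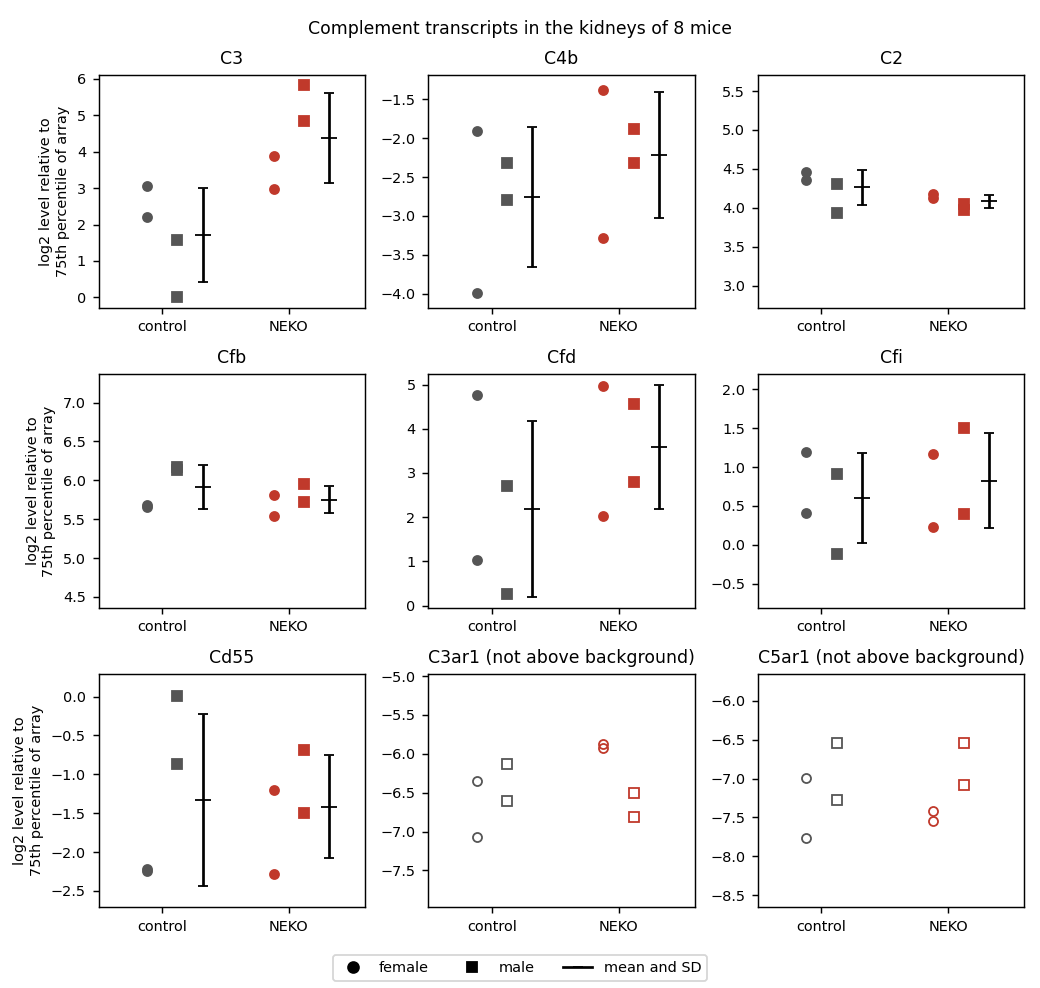
Level of each complement gene in each mouse, as log2 signal after subtracting the array's 75th percentile (vertical axis, a different range in each panel), in control (grey) and NEKO (red) mice, with circles for females, squares for males and black bars for the mean and SD of 4 mice. C3 stands highest in the 2 NEKO males, at 4.84 and 5.82, and the open symbols of C3ar1 (1 of its 2 probes) and C5ar1 are signals not well above background.

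C3, the component on which all routes converge, had the largest estimated difference of the 7. In the control females it was at 2.19 and 3.05 and in the control males at 0.0063 and 1.57. In the NEKO females it was at 2.97 and 3.87 and in the NEKO males at 4.84 and 5.82. Every NEKO mouse was thus above every control of its own sex but for 1 pair, in which a NEKO female at 2.97 lay just under a control female at 3.05. That pair is the only overlap between the groups. The mean of 4 controls was 1.71 ± 1.29 (SD), and that of 4 NEKO mice was 4.37 ± 1.23 (SD). The difference was 2.67 on the log2 scale, or 6.36-fold (standard error 0.82, 95% interval from 0.72 to 4.62), with an unadjusted p of 0.014 and an adjusted p of 0.19 from limma. By the exact two-sided permutation test of 4 mice against 4 its p was 0.057, where 0.0286 is the smallest this test can give. The test exchanged mice freely between the groups without regard to sex or slide.

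The C3 difference was 0.79 within the females and 4.54 within the males. Control males were 1.84 lower than control females, while NEKO males were 1.91 higher than NEKO females. Male and female effects differed by 3.75, and limma's interaction term (standard error 0.90) did not pass after adjustment over everything tested (adjusted p = 0.20). None of the 7 members had an adjusted interaction p under 0.05, and 0.0153% of everything tested did. C3 alone among the members passed the interaction term without adjustment at 0.05, as did 10.5% of everything tested. With an interaction in the limma model and the mean of the female and male effects as the estimate, C3 was called higher (adjusted p = 0.042), and so was 1.25% of everything tested (2.62% in either direction). Without control replicate 4, the male with the lowest C3, the difference was 1.98.

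C3 was read from 1 of its 2 probes. The other probe was well above background on 1 array only, that of the NEKO male with the highest C3, where it stood at -4.91. It ranged from -7.95 upwards and was dim on the other 7 arrays, so it gives no second measure of C3.

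The 250 bases before the start of C3 are shown because C3 is the member with the largest difference (RefSeq, GRCm38.p6, chr17:57228137-57228386, minus strand, 5′ to 3′). Capitals mark matches to TTNNGNAA, a form of the site bound by C/EBP factors, which are known to drive acute-phase genes.

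C3: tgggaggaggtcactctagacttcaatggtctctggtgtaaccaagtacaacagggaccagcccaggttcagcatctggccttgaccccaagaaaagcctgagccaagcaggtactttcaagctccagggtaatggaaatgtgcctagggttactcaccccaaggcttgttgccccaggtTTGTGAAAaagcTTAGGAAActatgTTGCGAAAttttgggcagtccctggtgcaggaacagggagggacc

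The 3 matches lie one after another, none overlapping, between 70 and 38 bases before the start. At least 1 match on either strand was found in 36.8% of the 32851 promoter windows of this length in the table, and 3 or more in 2.61%. No match in this window was found to TGACNNNGC, the core of the antioxidant response element that Nrf2 binds (10.2% of windows hold one), to the NF-kB site (7.25%), to TGANTCA, the AP-1 site (6.75%), or to TATAAA, the TATA box (12.4%). These are matches of letters, and no binding was measured. Of the 9 members, 5 have a promoter in the table: C3, Cfd, C3ar1, C5ar1 and Cd55.

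Summed levels of markers of several other cell types stood higher in the male NEKO kidneys, as C3 did, though not every gene of a list shared this. For neutrophils, 3 of 10 listed genes passed the filter. Their summed level ran from -2.16 to -0.92 in controls and from -1.50 to -0.87 in NEKO females, against 0.68 to 2.74 in NEKO males. The estimates of S100a8 and S100a9, which encode the subunits of calprotectin, were 1.81 and 1.64. That of the third gene, Mpo, which encodes myeloperoxidase, was 0.05 (adjusted p = 0.91 from limma). S100a8 was well above background on only 4 of 8 arrays, the fewest that the filter allows. S100a9 was at 2.59 and 0.48 in the NEKO males and between -2.69 and -1.08 in the other 6 mice. Elane, which encodes neutrophil elastase, was at background on all arrays.

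For macrophages and monocytes, 14 of 15 listed genes passed. Their summed level was 5.82 to 6.05 in controls, 6.09 to 6.14 in NEKO females and 6.13 to 6.46 in NEKO males. Genes weigh in this sum by their signal, and Ly6c2 (5.58 to 6.22 over all mice, log2 difference 0.26) made up most of it. The median log2 difference over the 14 was 0.29, with 0.02 in females and 0.59 in males. The difference in males exceeded that in females for 12 of the 14, and for 9849 of the 19593 over everything tested. Csf1r, the receptor for the macrophage growth factor CSF1, went the other way, with a difference of -0.67 in males, where the NEKO males (0.20 and 0.37) were the lowest of all 8 mice. For fibroblasts the sum was 4.79 to 5.66 in controls, 5.22 to 5.43 in NEKO females and 6.04 to 6.58 in NEKO males. For urothelium the 3 ranges were 0.17 to 1.503, 1.21 to 1.49 and 2.50 to 2.53. The male NEKO ranges of neutrophil, fibroblast and urothelial genes thus lay above those of all other mice, and the macrophage range overlapped with that of NEKO females. No gene of these 4 lists was called, and of 6 mast cell genes none passed the filter.

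Among kidney cell markers, the summed level of 1 list did not overlap between the groups, that of intercalated cells, the acid-handling cells of the collecting duct. For these all 6 estimates were below 0, and 4 of the 6 passed at 0.05 without adjustment, where 10.6% of everything tested passed as lower. The summed level was 5.18 to 5.62 in controls, 4.53 to 4.60 in NEKO females and 2.65 to 3.69 in NEKO males. For the distal convoluted tubule all 3 estimates were below 0, and all 3 passed at 0.05 without adjustment. The sums were 2.79 to 3.37, 2.82 to 3.35 and 1.87 to 2.09, so that the NEKO females lay inside the control range. The thick ascending limb had all 4 estimates below 0 too, with sums of 8.21 to 8.46, 8.23 to 8.31 and 7.63 to 7.83. Of 5 podocyte genes 3 had estimates above 0 and 2 below. Their sums overlapped, at 3.49 to 6.88 in controls and 2.43 to 3.54 in NEKO mice. The 9 proximal tubule genes had overlapping sums of 9.70 to 10.24 in controls and 9.75 to 10.20 in NEKO mice. Of 7 genes of tubular injury 5 had estimates above 0. Of these 3, Sox9, Krt20 and Lcn2, passed at 0.05 without adjustment, where 7.37% of everything tested passed as higher. The median of the 7 was 0.73, with 0.04 in females and 1.10 in males, and the estimate was larger in males for 6 of the 7, as it was for C3. Lcn2, which encodes the injury marker NGAL, differed by 0.73 (adjusted p = 0.21 from limma). The summed level of the 7, in which genes weigh by their signal, overlapped at 6.602 to 7.73 in controls and 6.70 to 7.69 in NEKO mice. The 7 lymphocyte genes that passed had sums of -0.83 to -0.29 in controls, -1.12 to -1.08 in NEKO females and -0.19 to -0.15 in NEKO males. For this list too the male NEKO range lay above all other mice, and the difference was larger in males for all 7. None of these genes was called. The part of any of these cell types in the C3 difference was not tested.

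**Figure D2:**
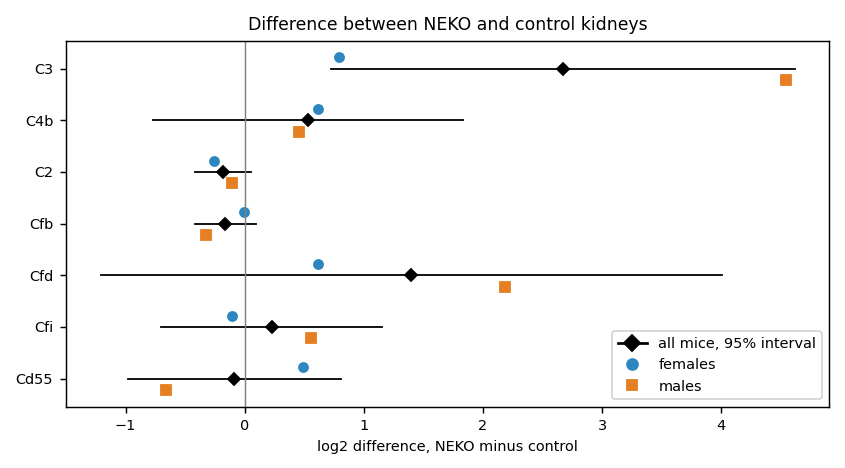
Log2 difference between NEKO and control kidneys for the 7 complement genes that could be tested. Black diamonds and lines are the estimate over all 8 mice with its 95% interval, blue circles are the females (2 against 2) and orange squares the males (2 against 2). The interval of C3 alone lies above 0, from 0.72 to 4.62 before adjustment for multiple testing, and its female and male values are 0.79 and 4.54.

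C4b and C2 encode the components that build the C3-cleaving enzyme of the classical and lectin routes. C4b was at -3.99 and -1.91 in control females, -2.80 and -2.31 in control males, -3.29 and -1.38 in NEKO females and -2.32 and -1.89 in NEKO males. Its groups overlapped widely, and the 2 control females held both the lowest and the highest control value. The log2 difference was 0.53 (95% interval from -0.77 to 1.83, adjusted p = 0.62 from limma), and it was 0.62 in females and 0.45 in males. The probe of C4a, the near-identical neighbour of C4b, was at background on all 8 arrays. Whether the C4b probe also binds C4a transcripts was not tested.

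C2 supplies the protease part of that enzyme. It was between 3.94 and 4.46 in controls and between 3.97 and 4.17 in NEKO mice, and its groups overlapped. The log2 difference was -0.18 (standard error 0.10, 95% interval from -0.42 to 0.05, adjusted p = 0.37 from limma), and the second C2 probe gave -0.14. The spread between mice was small, with an SD of 0.23 in controls and 0.09 in NEKO mice. All 4 NEKO mice lay below the 3 highest controls, and control replicate 4 (3.94) lay below them all, so that the groups did not overlap without it.

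Cfb and Cfd belong to the alternative pathway: factor B is the protease subunit of its C3-cleaving enzyme, and factor D, also called adipsin, cuts factor B to activate it. Cfb was at 5.66 and 5.69 in control females, 6.13 and 6.18 in control males, 5.54 and 5.81 in NEKO females and 5.95 and 5.72 in NEKO males. The control males were above all other mice. The log2 difference was -0.16 (standard error 0.11, 95% interval from -0.42 to 0.09, adjusted p = 0.45 from limma). C2 and Cfb, which are neighbouring genes with like roles, had the narrowest intervals of the 7 members.

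Cfd had the largest SD within each group of the 7 members. It was highest in NEKO female replicate 2, at 4.98, control female replicate 8, at 4.76, and NEKO male replicate 6, at 4.56. It was lowest in control male replicate 4, at 0.27, and control female replicate 1, at 1.02, with control male replicate 7 at 2.70, NEKO male replicate 5 at 2.79 and NEKO female replicate 3 at 2.03 between them. The mice named as highest came from both groups and both sexes, while the 2 named as lowest were controls, a male and a female. The SD was 1.99 in controls and 1.41 in NEKO mice, and the log2 difference of 1.40 had a 95% interval from -1.21 to 4.01 (adjusted p = 0.52 from limma). Leaving out a single mouse moved it to between 0.76 (without control replicate 4) and 2.30 (without control replicate 8).

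Adipsin is best known as a product of fat cells, and most adipocyte genes tested ordered the mice in a like way. Of 10 listed adipocyte genes 8 passed the filter, and for 5 of these the 3 highest mice were the same 3 as for Cfd. Also for 5 of them the 2 lowest mice were the same 2. Adipoq, which encodes adiponectin, was at 1.88, 1.79 and 1.27 in the 3 mice with the most Cfd and at -2.87 and -2.28 in the 2 with the least. Fabp4, a fatty acid carrier of adipocytes and endothelium, gave the same order of all 8 mice as Cfd. Lipe, the hormone-sensitive lipase, did not share the order, and Lep, which encodes leptin, was at background on all arrays. All 8 genes had estimates above 0, with a median log2 difference of 1.26 between NEKO and control mice. Their summed level was 4.54 to 5.86 in controls and 5.12 to 6.28 in NEKO mice, which overlap, and none was called. The part of adipose tissue in the Cfd values was not tested.

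**Figure D3:**
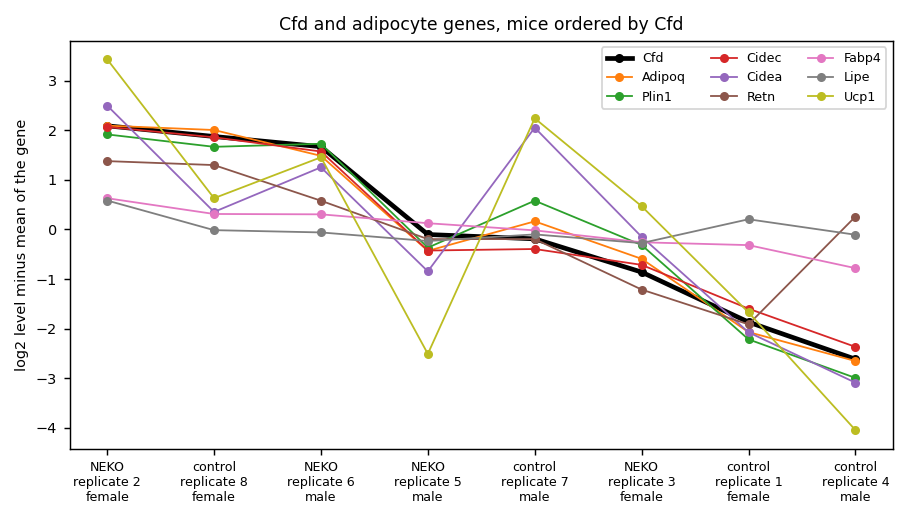
Cfd (thick black line) and 8 adipocyte genes (thin coloured lines) in each mouse, as log2 level minus the mean of that gene over the 8 mice, with the mice ordered from the highest to the lowest Cfd. Fabp4 falls with Cfd from left to right throughout, and so do Adipoq and Cidec but for NEKO replicate 5 and control replicate 7, which change places. Plin1, Cidea, Retn, Lipe and Ucp1 depart from the order of Cfd in more mice. Control and NEKO mice are mixed along the order except at its low end, where control replicates 1 and 4 stand.

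The 250 bases before the start of Cfd are shown for comparison with C3, as the other member with a wide spread (RefSeq, GRCm38.p6, chr10:79890603-79890852, plus strand, 5′ to 3′). No match to any of the 5 motifs named above was found in it, so that it has no capitals.

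Cfd: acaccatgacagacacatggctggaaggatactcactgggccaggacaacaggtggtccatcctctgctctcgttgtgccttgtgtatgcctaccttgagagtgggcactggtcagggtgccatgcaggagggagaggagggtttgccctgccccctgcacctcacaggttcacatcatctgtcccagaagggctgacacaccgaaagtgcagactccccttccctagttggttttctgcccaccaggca

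Cfi and Cd55 restrain complement. Factor I cuts C3b and C4b once a cofactor holds them, and Cd55, or decay-accelerating factor, takes the C3-cleaving enzymes apart on the cell surface. Cfi was at 0.41 and 1.20 in control females, -0.12 and 0.92 in control males, 0.23 and 1.17 in NEKO females and 0.40 and 1.51 in NEKO males. The ranges of the groups overlapped for most of their length, and the log2 difference was 0.23 (95% interval from -0.70 to 1.15, adjusted p = 0.78 from limma).

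Cd55 was at -2.25 and -2.21 in control females, 0.011 and -0.87 in control males, -1.20 and -2.28 in NEKO females and -0.69 and -1.50 in NEKO males. The control males were above both control females. Over all 8 mice the log2 level was 1.22 higher in males than in females, with a standard error of 0.38 (adjusted p = 0.14 from limma's sex term, for which 0.786% of everything tested was called). Cfb was 0.32 higher in males (adjusted p = 0.16 from limma). These were the 2 members that passed that term without adjustment at 0.05, as did 21.2% of everything tested. Between the genotypes Cd55 differed by -0.09 (95% interval from -0.98 to 0.81, adjusted p = 0.92 from limma), with 0.49 in females and -0.66 in males. Its paralog Cd55b was at background on all arrays.

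Among mice of the same sex and genotype, C3, C4b and Cfi had the same order: in all 4 such pairs the same mouse was the higher for all of these genes. These were control replicates 8 and 7 and NEKO replicates 3 and 6. In each pair the higher mouse was on the later array of the slide (2 or 4), and 8.81% of everything tested had that order in all 4 pairs. This order was noticed after the values were seen, and the part of array position in it was not tested.

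The receptors C3ar1 and C5ar1 take up the anaphylatoxin fragments of C3 and C5 and are best known from myeloid cells. Neither was well above background on any of the 8 arrays. The 2 probes of C3ar1 ranged from -7.07 to -5.87 and from -7.21 to -6.22, and the probe of C5ar1 from -7.76 to -6.55. No fold is given for either, since both groups have only a bound.

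The other genes of the system were followed as a list of 47, of which 29 were tested and 18 were not, among them C7, which had no probe that could be named. None of the 29 was called. At an unadjusted p under 0.05 limma gave 2 higher and 3 lower of the 29, which is close to the 7.37% higher and 10.6% lower over everything tested. The median log2 difference was 0.03, from -0.85 to 0.70. The difference in males exceeded that in females for 21 of the 29, against 9849 of the 19593 over everything tested. The medians were 0.32 in males and -0.18 in females, while over everything tested both medians were -0.03.

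**Figure D4:**
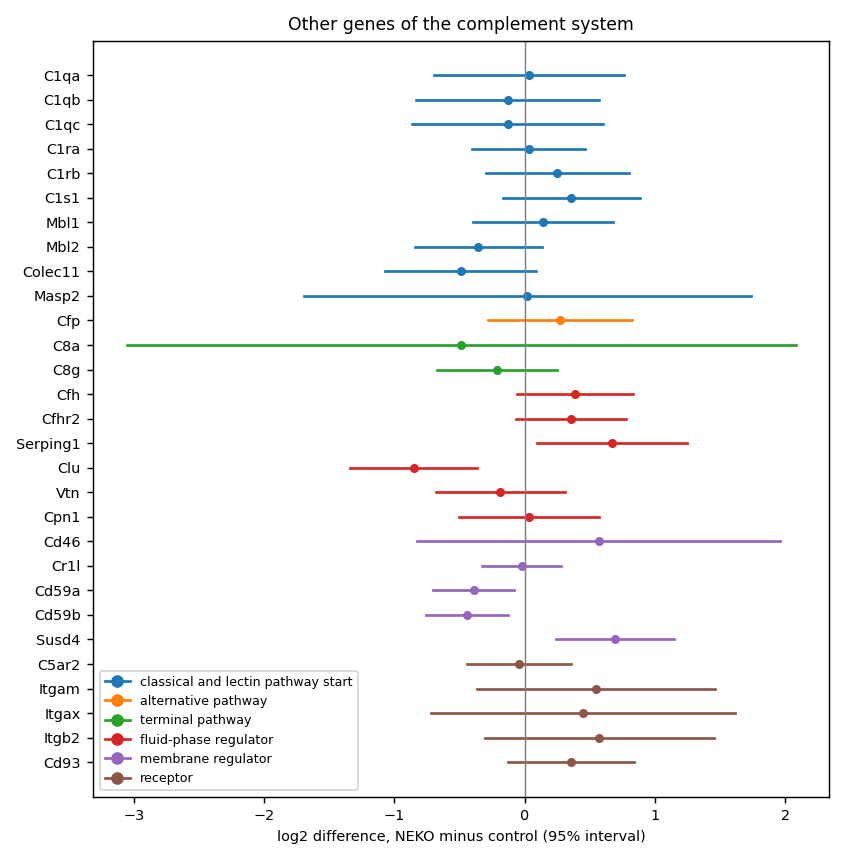
Log2 difference between NEKO and control kidneys, with its 95% interval, for 29 other complement genes, coloured by their role. The intervals of Serping1 and Susd4 lie above 0 and those of Clu, Cd59a and Cd59b below it before adjustment for multiple testing, and no gene passed after adjustment.

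The largest differences were among regulators. Clu, or clusterin, which holds back the terminal complex, had groups that did not overlap. It was at 4.55 and 4.40 in control females, 4.08 and 4.75 in control males, 3.71 and 3.97 in NEKO females and 3.03 and 3.66 in NEKO males. Every NEKO mouse was below every control. The log2 difference was -0.85 (standard error 0.21, 95% interval from -1.34 to -0.37), that is 1.81-fold lower, with an adjusted p of 0.13 from limma. The exact two-sided permutation test, which disregards sex, gave p = 0.0286, the smallest it can give.

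Susd4, a membrane protein that is known to bind C1q and dampen the classical route, was the only gene of the 29 with every NEKO mouse above every control. It was between -0.43 and 0.063 in controls and between 0.31 and 1.06 in NEKO mice. The log2 difference was 0.70 (standard error 0.19, 95% interval from 0.24 to 1.15, adjusted p = 0.16 from limma). With Clu these are 2 of 29 genes with groups apart, against the 9.27% given above for everything tested.

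The other 3 with an unadjusted p under 0.05 are named because they complete that count. Serping1, the C1 inhibitor, differed by 0.67 (95% interval from 0.09 to 1.24, adjusted p = 0.23 from limma), with 0.09 in females and 1.25 in males. Cd59a and Cd59b, which block the membrane attack complex on host cells, differed by -0.39 (adjusted p = 0.20 from limma) and -0.44 (adjusted p = 0.18 from limma). The second Cd59a probe gave -0.23, and that of Cd59b was at background on all arrays. Whether these paralogs share signal was not tested.

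At the start of the classical pathway, the 3 chains of C1q, which resident macrophages are known to make, had small estimates. C1qa differed by 0.03, C1qb by -0.13 and C1qc by -0.13. All 3 had a negative difference in females and a positive one in males. Of the 16 genes listed for the start of the classical and lectin routes 10 were tested and had a median of 0.02. In the terminal pathway, which builds the membrane attack complex, only C8a and C8g of 7 listed genes passed the filter, and Hc, which encodes C5, was well above background on 2 arrays.

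The 5 tested receptor genes all had a larger estimate in males than in females, with medians of 1.30 and -0.20. Their summed level was 1.97 to 2.44 in controls, 2.07 to 2.40 in NEKO females and 2.75 to 3.00 in NEKO males. Genes weigh in this sum by their signal, and Cd93 (1.78 to 2.72 over all mice) made up most of it. Cd93 differed by -0.12 in females and 0.83 in males. Itgam, Itgax and Itgb2 encode the chains of complement receptors 3 and 4, which bind C3 fragments. Itgb2 was between -2.70 and -2.02 in controls, -2.62 and -2.24 in NEKO females and -1.65 and -0.84 in NEKO males. The NEKO males were above all other mice. The difference was -0.28 in females and 1.43 in males, and the interaction of 1.70 had an adjusted p of 0.19 from limma. It was -0.21 and 1.30 for Itgam, which was well above background on 5 of 8 arrays. C5ar2, a second receptor for C5a, differed by -0.05 with -0.07 in females and -0.02 in males.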

How the data were processed

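The authors deposited, for each array, the output of Agilent Feature Extraction 10.7.3.1. In it the processed signal is an intensity that was background-subtracted and detrended but not normalized between arrays. A matrix of log2 values that the authors deposited differed by less than 0.01 from the values used here once each probe was centred on its median. Outlier spots were left out and spots of 1 probe averaged. The log2 signal was scaled by subtracting, per array, the 75th percentile over probes other than controls. The filter asked for signal well above background on 4 or more of 8 arrays and a value on 6 or more, and the brightest probe that passed stood for its gene. Of 41174 probes, 26690 were named by matching accessions to RefSeq (GRCm38.p6); the arrays are annotated on mm9, and promoters were matched by symbol. The model (limma 3.58.1, R 4.3.3) had genotype and sex as terms, with adjustment over 19593 features; a second had their interaction. It was tested on simulated data. The number of arrays limits the precision. The paper names no array test, only an unpaired comparison with unequal variances, used as an alternative ("the methods' t-test").

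Each array is a separate mouse. Members and lists were chosen with earlier results of these data known. Named genes are the 9 members, listed genes that were called or had groups apart (up to 12), and markers that state a list; others were named after their values were seen. Alternatives were normexp background correction (offset 50, on the median signal), quantile normalization, no filter on dim probes, detection on all 8 arrays, the mean of kept probes, no sex term, the mean of the female and male effects from the interaction model, eBayes with a trend and robust, the methods' t-test, the deposited matrix and leaving out each mouse.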

Additional observations from a re-analysis of the deposited data

Results flagged for a closer look

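In 4 genes of the wider complement list both NEKO mice of one sex lay above both controls of that sex and both NEKO mice of the other sex lay below. The effect in males minus that in females was -3.24 for Masp2, a protease of the lectin pathway (unadjusted p = 0.0077, adjusted p = 0.23 from limma), and -4.51 for C8a, a chain of the membrane attack complex (0.020 and 0.33 from limma). It was 0.99 for Cfp, or properdin, which stabilises the alternative pathway enzyme (0.015 and 0.30 from limma), and 2.25 for Itgax (0.0054 and 0.19 from limma). None passed the adjusted interaction test, and the 4 were picked for this pattern. C8a was at -1.02 and -0.83 in control females and 1.29 and 0.41 in NEKO females, and at 1.00 and 0.59 in control males and -0.23 and -3.67 in NEKO males.

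The second probe of C3, which took no part in the comparison, was well above background on the array of NEKO replicate 6, at -4.91, and on no control array. In 18 groups of 4 mice, those of the 7 tested members, Clu and Susd4, no mouse stood far from the other 3 by the gap to its neighbour over the range.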

How the results depend on the processing

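No paired analysis was possible because the replicate numbers run over both groups and none is shared. The counts of 0 members called higher and 0 called lower were unchanged in most alternatives. The exceptions for higher calls were the effect averaged over the sexes (1 member, C3, and 1 other complement gene) and the methods' t-test without adjustment (1 member, and 2 other genes higher and 1 lower). In the counts of members called, and of other genes called, leaving out each mouse in turn gave from 0 to 0. For members with groups apart it gave from 0 to 1, with 1 without NEKO replicate 2 or control replicate 8 (C3) and without control replicate 4 (C2). C3 stayed higher in NEKO mice in all 18 alternatives that adjusted p-values, by 1.98 to 3.22, with adjusted p from 0.042 to 0.40 by limma or the methods' t-test. The difference changed sign for Cfi without control replicate 4 (-0.047) or NEKO replicate 6 (-0.061) and was at most 0.48. For Cd55 it changed sign without NEKO replicate 3 (0.013), control replicate 4 (0.21) or NEKO replicate 6 (0.19), and was -0.42 at the lowest. C4b was 0.10 without control replicate 1, 0.14 without NEKO replicate 3, 0.90 without NEKO replicate 2 and 0.93 without control replicate 8. Cfd was 0.81 without control replicate 1, 0.89 without NEKO replicate 6 and 2.15 without NEKO replicate 3. Clu stayed lower (-0.95 to -0.68) and Susd4 higher (0.53 to 0.79), neither called with adjustment. The causes were not tested. Signals of C3ar1 and C5ar1 are at background, so a change in either was not detectable.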
